A study of Mus musculus with 28 samples.

Results

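Cytochrome P450 genes of the xenobiotic families 1 to 3 were followed in mouse liver tumors and non-tumor liver, together with the receptors that induce them and the reductase that supplies their electrons. The genes were all those whose symbol begins with Cyp1a, Cyp2a, Cyp2b, Cyp2c, Cyp2d, Cyp2f, Cyp2j, Cyp2u or Cyp3a, with 2 pseudogenes marked -ps left out, plus Nr1i2, Nr1i3, Ahr and Por. Of 22187 genes deposited, 58 matched, and 46 of these were kept because 3 or more of the 28 libraries held them at 1 CPM or above. CPM is the number of reads of a gene per 1000000 reads of its library. The 46 genes were 42 P450 genes, 3 receptors and the reductase. By subfamily 2 of 2 Cyp1a, 4 of 5 Cyp2a, 3 of 5 Cyp2b, 13 of 15 Cyp2c, 7 of 8 Cyp2d, 3 of 8 Cyp2j and 8 of 9 Cyp3a genes were kept, and so were Cyp2f2 and Cyp2u1. Just inside the threshold lay Cyp3a57, with 1 CPM or more in 4 libraries, and Cyp2d12 and Cyp3a41b, each in 5. Just outside it lay Cyp3a16, which reached 9.20 CPM but had 1 CPM or more in only 2 libraries, and Cyp2j8, whose highest value was 0.726 CPM.

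All mice were C57BL/6, carried floxed Il17ra (the gene of the interleukin-17 receptor A chain) and had received the liver carcinogen diethylnitrosamine (DEN), 25 mg/kg, at 2 weeks of age. The 8 groups were tumors and non-tumor liver of dHEP mice, in which Cre recombinase driven by the albumin promoter deletes the floxed gene in hepatocytes, and of FF mice, which have the floxed gene without Cre, after 18 weeks on an alcohol diet (n = 4 in each group) or on chow (n = 3 in each group). The alcohol diet appears in the labels as high fat plus alcohol and, in the design text, as isocaloric liquid ethanol, so ethanol cannot be told apart from the other differences between that diet and chow. Libraries are named by genotype and by the number in the sample title, taken here as that of the animal. Alcohol-fed animals were dHEP-518, dHEP-520, dHEP-549, dHEP-550, FF-503, FF-523, FF-581, FF-595. Chow-fed animals were dHEP-155, dHEP-164, dHEP-165, with the FF animals FF-167, FF-168, FF-169 giving tumors and FF-157, FF-158, FF-159 giving non-tumor liver. Values of a group are listed in that order of animals. Nothing in the labels gives the sex of the mice, and where tumor and non-tumor numbers differ, as in FF mice on chow, the tissues are not known to share animals.

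P450 enzymes are heme proteins of the endoplasmic reticulum that insert oxygen into drugs, toxins, steroids and fatty acids, and they receive the electrons for this from NADPH through cytochrome P450 reductase, the product of Por. CAR (Nr1i3) and PXR (Nr1i2) are nuclear receptors that sense foreign compounds, pair with the retinoid X receptor and induce genes of the Cyp2b, Cyp2c and Cyp3a subfamilies. The aryl hydrocarbon receptor (Ahr) pairs with ARNT and induces Cyp1a genes. In normal liver most of these enzymes are made by hepatocytes near the central vein, and in mice several of them differ between the sexes under the control of growth hormone.

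The members lie mostly in tandem clusters, in which neighbouring genes and their promoters are alike. On GRCm38 the 13 Cyp2c genes kept lay between 39007019 and 44029208 on chromosome 19, the 8 Cyp3a genes between 137892932 and 146113287 on chromosome 5 and the 7 Cyp2d genes between 82370527 and 82794294 on chromosome 15, and chromosome 7 held the Cyp2a, Cyp2b and Cyp2f genes between 25897620 and 27133660. The upstream sequences of 2 neighbouring pairs are shown because their members differed widely in level, as given further on, while the sequences differed in a few bases. Cyp2a4 and Cyp2a5 were 98% identical over the 250 bases before the start of the gene, with 4 mismatches and 1 inner gap, and Cyp2b9 and Cyp2b13 were 99.2% identical with 2 mismatches. The 210 bases from 250 to 41 bases before the RefSeq start (GRCm38.p6, plus strand) follow, 5′ to 3′, with capitals for the bases that differ from the other gene of the pair; the first capital of Cyp2a4 is the base missing from Cyp2a5. The regions are chr7:26306942-26307151 for Cyp2a4, chr7:26835089-26835298 for Cyp2a5, chr7:26173159-26173368 for Cyp2b9 and chr7:26061245-26061454 for Cyp2b13.
Cyp2a4: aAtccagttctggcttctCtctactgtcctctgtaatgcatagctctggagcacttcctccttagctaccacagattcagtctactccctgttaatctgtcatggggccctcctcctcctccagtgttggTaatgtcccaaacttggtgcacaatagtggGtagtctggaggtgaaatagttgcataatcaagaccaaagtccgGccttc
Cyp2a5: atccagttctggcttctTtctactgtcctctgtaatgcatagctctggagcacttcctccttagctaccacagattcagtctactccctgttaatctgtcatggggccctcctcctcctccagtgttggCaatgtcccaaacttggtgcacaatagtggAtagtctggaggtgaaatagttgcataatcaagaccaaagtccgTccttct
Cyp2b9: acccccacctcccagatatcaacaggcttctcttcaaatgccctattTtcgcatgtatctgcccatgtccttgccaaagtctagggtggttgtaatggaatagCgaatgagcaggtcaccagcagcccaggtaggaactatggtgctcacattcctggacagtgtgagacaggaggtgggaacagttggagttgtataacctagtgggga
Cyp2b13: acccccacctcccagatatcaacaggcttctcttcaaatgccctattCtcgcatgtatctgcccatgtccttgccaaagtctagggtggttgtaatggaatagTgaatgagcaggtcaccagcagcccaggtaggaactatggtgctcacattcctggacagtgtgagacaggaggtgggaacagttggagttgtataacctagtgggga

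Promoters were searched on both strands over the 250 bases before the start for short motifs of factors that act on these genes. A RefSeq promoter was matched for 40 of the 46 members, all but Cyp2c23, Cyp2c54, Cyp2d12, Cyp2d22, Cyp2u1 and Ahr. The core of the HNF4A site, CAAAGTCC, was present in 10 of the 40 (25%), against 1.2% of all 32851 promoters in the table. HNF4A is a nuclear receptor that maintains the hepatocyte state. The 10 were Cyp2a4, Cyp2a5, Cyp2c40, Cyp2c67, Cyp2c68, Cyp2c69, Cyp2c70, Cyp3a11, Cyp3a41a and Cyp3a41b, so neighbours with near-identical promoters count several times. AGGTCA, bound by nuclear receptors, was in 30% of the members and 14% of all promoters, TTGCNNAA of the C/EBP family in 25% and 9.56%, and GCGTG of the aryl hydrocarbon receptor in 12.5% and 28.2%. TTCNNNGAA, the letters of a STAT5 site, was in 0 of the 40 members and 7.02% of all promoters. Neighbours with like promoters, such as Cyp2b9 and Cyp2b13, count more than once for AGGTCA and TTGCNNAA as well. A match is only a match of letters in this window. The stretches of 30 bases around CAAAGTCC are shown with the motif in capitals. Its flanks are nearly the same in Cyp2a4 and Cyp2a5, and in Cyp2c67, Cyp2c68 and Cyp2c69. They are less alike in Cyp3a11 and Cyp3a41a, and those of Cyp2c70 differ from the other Cyp2c genes shown. The regions are chr7:26307126-26307155 for Cyp2a4, chr7:26835272-26835301 for Cyp2a5, chr19:39649149-39649178 for Cyp2c67, chr19:39741160-39741189 for Cyp2c68, chr19:39886826-39886855 for Cyp2c69, chr19:40187332-40187361 for Cyp2c70, chr5:145879945-145879974 for Cyp3a11 and chr5:145720213-145720242 for Cyp3a41a, on the strand of the gene, which is plus for Cyp2a4 and Cyp2a5 and minus for the others.
Cyp2a4: ataatcaagacCAAAGTCCggccttctgtc
Cyp2a5: ataatcaagacCAAAGTCCgtccttctgtc
Cyp2c67: tatcattgagaCAAAGTCCatttggaagca
Cyp2c68: tatcattgaaaCAAAGTCCaattggaagag
Cyp2c69: tatcattgagaCAAAGTCCatttggaagag
Cyp2c70: gaggtcaaactCAAAGTCCaaactctgtgt
Cyp3a11: gaagagagtacCAAAGTCCagtgatgcaaa
Cyp3a41a: aaagagacgacCAAAGTCCaggtgatgcag

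The libraries held 9.57 to 17.82 M reads (M, 1000000 reads), estimated from the steps between low values, so 1 CPM stood for about as many reads as the library has M. Il17ra read 8.38 to 29.4 CPM (median 15.4) in 7 dHEP tumors and 20.8 to 33.9 CPM (median 29.9) in 7 FF tumors, and 8.34 to 13.0 CPM (median 10.4) in 7 dHEP non-tumor livers and 14.7 to 31.0 CPM (median 20.2) in 7 FF non-tumor livers; the genotypes did not overlap in non-tumor liver, and 2 of 7 dHEP tumors lay at or above the lowest FF tumor. All samples carried hepatocyte markers: the summed CPM of 8 genes (Alb, Ttr, Apoa1, Tat, Serpina1c, Cps1, Apob and Fgb) was 110330 to 208740 in tumors, against 70446 to 114200 in non-tumor liver. Alb (67798 to 144460 CPM in tumors, against 24253 to 64143 CPM in non-tumor liver) and Apoa1 made the sum higher in tumors, while Cps1 was called lower in both chow comparisons and Tat, Ttr and Serpina1c were called in none. The summed level of pericentral hepatocyte markers was lower in tumors, with 8 genes (among them Glul, Oat, Slc1a2 and Cyp2e1) summing to 185 to 3151 CPM in tumors, against 8289 to 12775 CPM in non-tumor liver. Cyp2e1 alone read 83.6 to 1926 CPM in tumors, against 5441 to 9517 CPM in non-tumor liver. Lect2, also on that list, was called in none, Oat read 1777 CPM in the dHEP-550 tumor, above every non-tumor liver, and Lgr5 read 40.5 CPM in the FF-167 tumor. In these bulk samples fewer cells of a type and less RNA per cell cannot be told apart, and what part the lower pericentral markers have in the P450 values was not tested.

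A few libraries stood apart on the members and are named beside the results that rest on them. The non-tumor library FF-158 was above all 13 other non-tumor libraries for 18 of the 46 members and below all for 4. Several P450 genes known to be higher in female mice were among the 18. Cyp2c69 read 573 CPM against a median of 3.4 CPM in the others, Cyp3a41a 374 against 1.82 CPM and Cyp2c40 293 against 8.9 CPM. Cyp2d9, which is higher in male mice, read 255 CPM in FF-158 and was below all others. Outside the members FF-158 was above all others for 7 of 8 female-biased genes of liver (A1bg read 131 CPM against at most 1.12 CPM) and below all others for 9 of 9 male-biased ones (Mup20 read 157.4 CPM against at least 3423 CPM). Of 4 X-linked genes that escape inactivation it was above all others for 1 and among them for 3. The tumor FF-168, from another animal by its number, had Cyp2c69 at 54.0 and Cyp3a41a at 28.9 CPM. The tumor dHEP-165 had Cyp3a44 at 334 CPM, against 0.154 to 6.55 CPM in the other 13 tumors, and the highest tumor value of 14 members. In tumors the lowest value of 12 members was in FF-581, and in non-tumor liver that of 14 was in FF-595. Highest and lowest values of a library were not counted over all genes, so these counts may not be particular to the members. What sets these libraries apart was not tested.

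**Figure D1:**
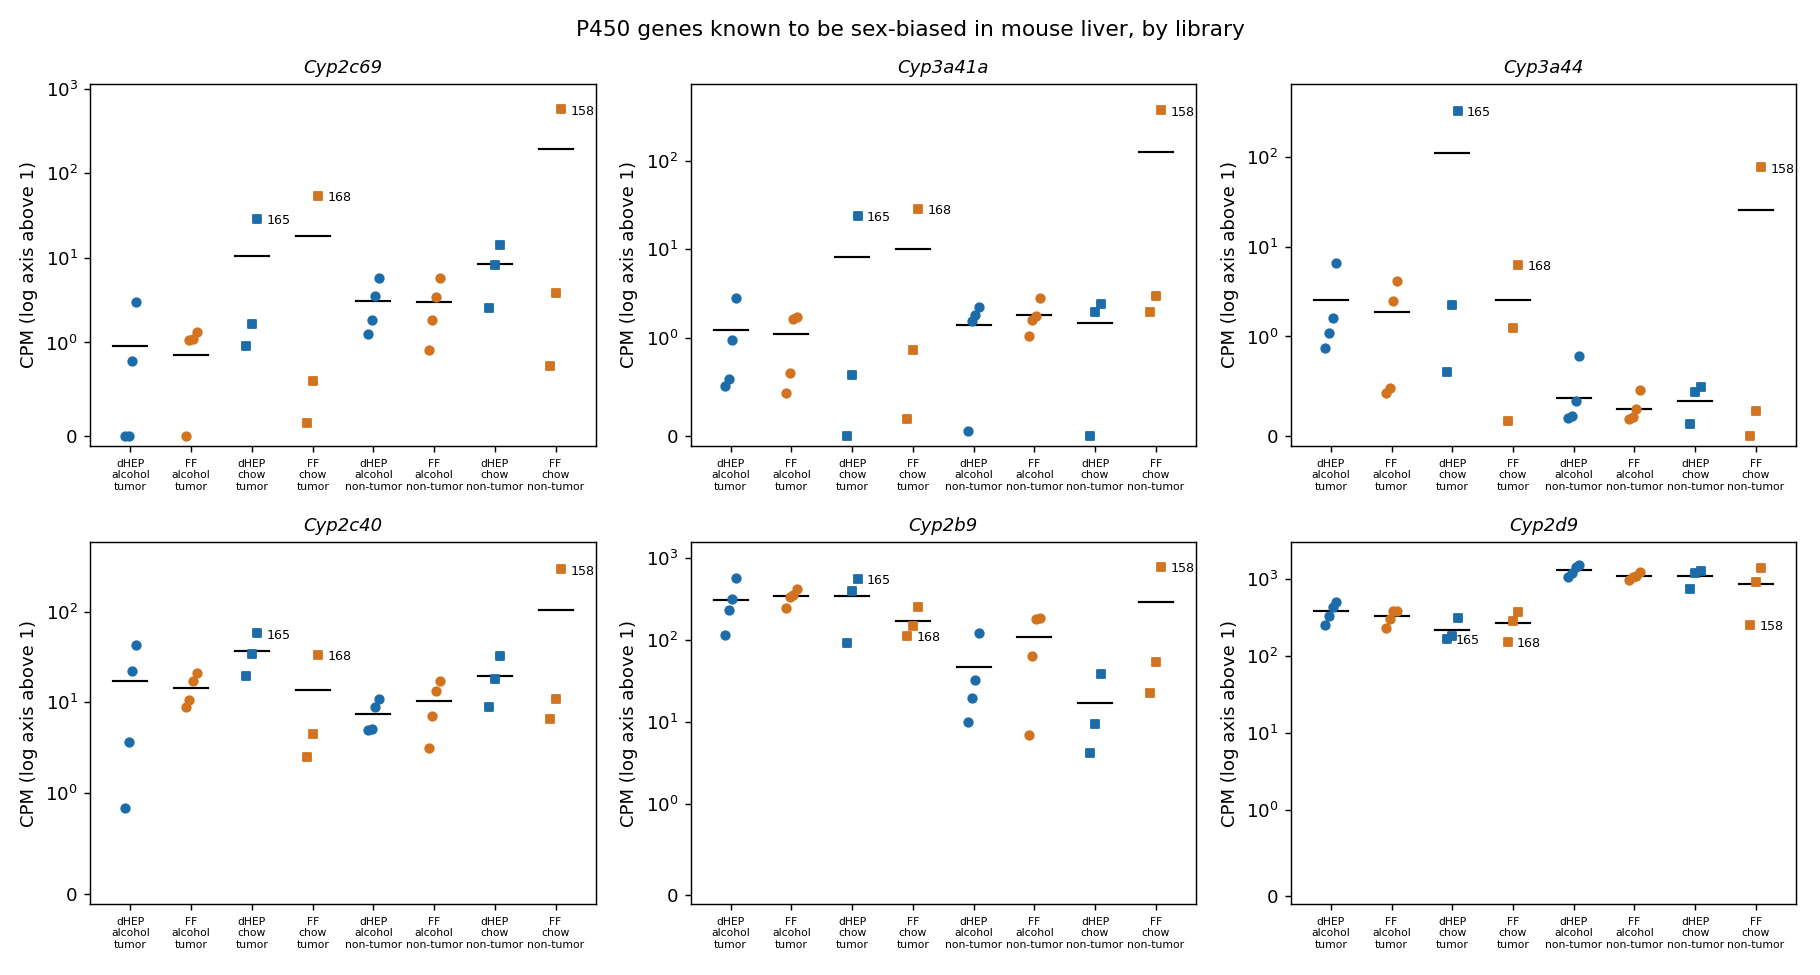
CPM of 6 P450 genes that differ between the sexes in mice (y axis, linear near 0 and log above) in tumors and non-tumor liver of the 4 combinations of genotype and diet; points are libraries, short lines are group means. The labelled non-tumor library FF-158 reads 573 CPM for Cyp2c69 and 374 CPM for Cyp3a41a and 255 CPM for Cyp2d9, and the labelled tumors FF-168 and dHEP-165 read 54.0 CPM for Cyp2c69 and 334 CPM for Cyp3a44.

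By the median, tumors had less P450 RNA than non-tumor liver, with overlapping ranges, and a different mix of it. The 42 P450 genes made up 0.449% to 1.86% of all CPM in tumors (median 0.848%), against 0.962% to 1.94% in non-tumor liver (median 1.47%). Of the P450 CPM, Cyp2a genes held a median of 41.9% in tumors and 10.3% in non-tumor liver, and Cyp2b genes 3.49% and 0.505%. Cyp2c genes held 9.29% in tumors and 31.2% in non-tumor liver, Cyp3a genes 14.4% and 24.2%, Cyp2f2 0.668% and 5.0%, and Cyp1a genes 0.461% and 2.32%. Cyp2d genes had similar median shares, 22.1% in tumors and 18.9% in non-tumor liver. The most abundant P450 gene by CPM was Cyp2a4 in 12 of 14 tumors and Cyp3a11 in 13 of 14 non-tumor livers; the exceptions were dHEP-520 (Cyp3a11) and FF-167 (Cyp2d26) among tumors and dHEP-155 (Cyp2c29) among non-tumor livers. Per kb of exon, Cyp2a4 ranked first in the tumors of all 4 combinations of genotype and diet, at 1573 ± 788 and 1234 ± 568 CPM per kb in dHEP and FF tumors on alcohol and 2610.0 ± 1973 and 1915 ± 2128 CPM per kb in dHEP and FF tumors on chow (mean ± SD). In non-tumor liver the first were Cyp2a5 in dHEP mice on alcohol (619.8 ± 176 CPM per kb), Cyp3a11 in FF mice on alcohol (507 ± 154) and Cyp2c29 in both chow groups (700.4 ± 47.4 in dHEP and 773 ± 29.3 in FF mice). In each non-tumor group the lead of the first gene over the second was smaller than the larger of their SDs, and so it was in FF tumors on chow. Exon length was the union of all annotated exons, and the length that was counted is not given in the sources used here.

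The comparison of tumor with non-tumor liver was made in each combination of genotype and diet, with limma on log2(CPM + 1) over all 28 libraries and 13503 genes and a call at a Benjamini-Hochberg adjusted p below 0.05. Fold changes below are log2 differences, tumor minus non-tumor, ± SE. In dHEP mice on alcohol 2 members were called higher and 17 lower, beside 12.9% and 7.54% of all genes tested. In FF mice on alcohol 2 were higher and 20 lower, beside 13.9% and 10.6%. In dHEP mice on chow 2 were higher and 22 lower (17.2% and 10.7% of all genes), and in FF mice on chow 1 was higher and 25 lower (21.2% and 9.55%). The median log2 fold change of the 46 members was -0.61, -0.84, -0.97 and -1.53 in these 4 comparisons, in the same order, and that of all genes tested 0.09, 0.05, 0.14 and 0.16. The 4 comparisons contrast separate libraries, but their SEs and p-values rest on the same spread, estimated over all 28 libraries. Of the members 15 were lower in all 4 comparisons, 6 in 3, 2 in 2 and 2 in 1, while Cyp2a4 was higher in all 4, Cyp2b9 in 2 and Cyp3a57 in 1. A further 18 were called in none. Such repeated calls were not counted over all genes, so no share stands beside these numbers. In FF mice on alcohol, where tumor and non-tumor libraries of the same number deviated together for every number (r = 0.16 to 0.356), a fit of those 8 libraries with the number as a block called 5 members higher and 26 lower. It kept the 22 calls and added Cyp2b9, Cyp2c68 and Cyp2d26 as higher and Cyp2b10, Cyp2c69, Cyp2c70, Cyp2u1, Cyp3a13 and Ahr as lower. How many of all genes this fit called was not counted, so the added calls may not be particular to the members. Without FF-158 the lower count in FF mice on chow was 22, without the tumor FF-168 it was 19, and without both it was 18, a leave-out chosen after the data had been seen.

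**Figure D2:**
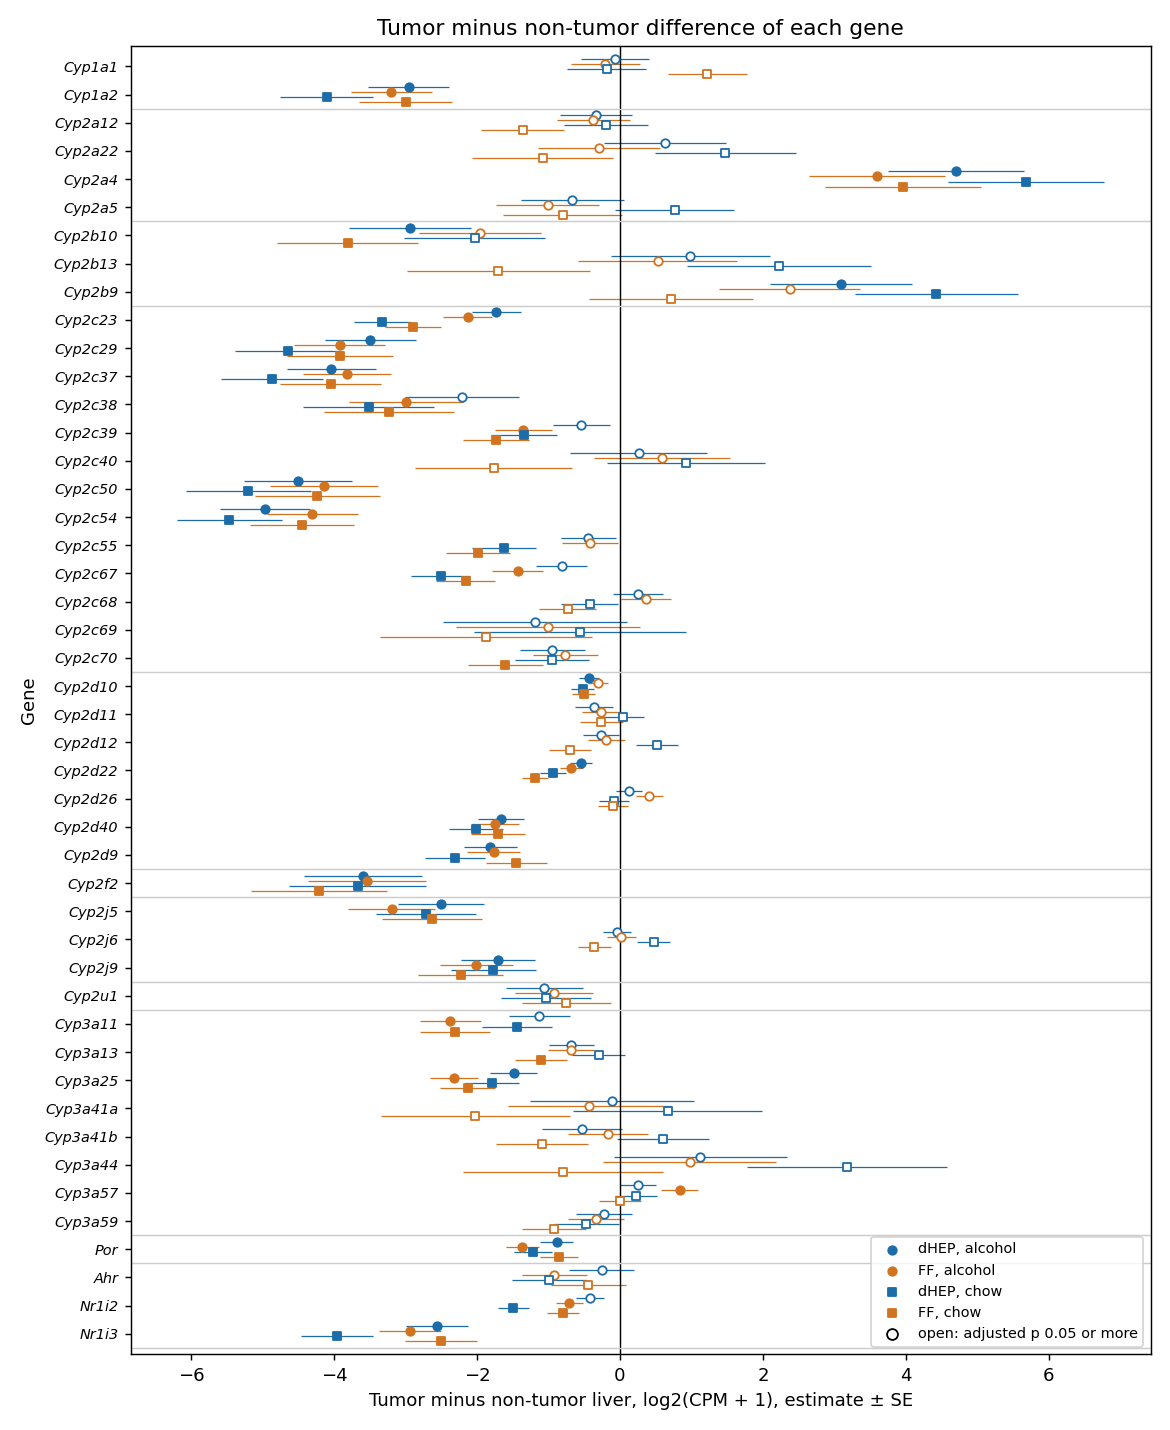
Log2 fold change of tumor against non-tumor liver for each of the 46 genes with its SE (x axis), in dHEP (blue) and FF mice (orange) on alcohol (circles) and chow (squares); filled symbols have an adjusted p below 0.05. Cyp2a4 lies to the right in all 4 comparisons (3.59 to 5.68), and Cyp2c54, Cyp2c50, Cyp2c37 and Cyp2c29 lie farthest to the left (-3.49 to -5.46).

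Of the regulators, CAR RNA was lower in every tumor group. On alcohol Nr1i3 read 73, 154, 46.9 and 41.8 CPM in dHEP and 25.2, 65.7, 11 and 31.4 CPM in FF tumors, against 465, 649, 272 and 346 CPM in dHEP and 160.4, 269.6, 224 and 234 CPM in FF non-tumor liver. On chow it read 11.7, 15 and 3.98 CPM in dHEP and 32.2, 54.6 and 47.3 CPM in FF tumors, against 147, 133 and 193 CPM in dHEP and 216, 341 and 219.6 CPM in FF non-tumor liver. Within each combination of genotype and diet all tumors were below all non-tumor livers; over the groups the tumor dHEP-520, at 154 CPM, reached the lowest non-tumor values. The log2 fold changes were -2.57 ± 0.43 (adjusted p = 0.00027) in dHEP and -2.94 ± 0.43 (adjusted p = 3.84e-05) in FF mice on alcohol. On chow they were -3.96 ± 0.50 (adjusted p = 6.76e-06) in dHEP and -2.51 ± 0.50 (adjusted p = 0.000757) in FF mice. PXR RNA fell in 3 of the 4 comparisons. Nr1i2 read 16.9 to 76.5 CPM (median 45.8) in the 14 tumors and 66 to 96.6 CPM (median 86.4) in the 14 non-tumor livers. It was lower in FF mice on alcohol (-0.71 ± 0.19, adjusted p = 0.00877) and in dHEP (-1.49 ± 0.22, adjusted p = 4.16e-05) and FF mice on chow (-0.80 ± 0.22, adjusted p = 0.0087). The last had an adjusted p of 0.052 without FF-168. In dHEP mice on alcohol it was not called (-0.42 ± 0.19, adjusted p = 0.126). Ahr ranged over 13.6 to 156 CPM (median 54.7) in the 14 tumors and 42.1 to 124 CPM (median 79.8) in the 14 non-tumor livers, overlapping in every group, and was called in none without the block (fold changes -0.25, -0.92, -0.99 and -0.44; with it, adjusted p = 0.0109 in FF mice on alcohol and adjusted p = 0.0261 in dHEP mice on chow).

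The reductase gene Por, on which all these enzymes depend, was lower in all 4 tumor groups. On alcohol it read 163, 195, 216 and 280.4 CPM in dHEP and 91.4, 135, 85.6 and 115 CPM in FF tumors, against 474, 360.4, 424 and 315 CPM in dHEP and 182, 345, 259 and 339 CPM in FF non-tumor liver. On chow the values were 115, 72.8 and 49.6 CPM in dHEP and 123, 107 and 134 CPM in FF tumors, against 135, 209 and 188 CPM in dHEP and 228, 217 and 213 CPM in FF non-tumor liver. Tumors and non-tumor livers of the same genotype and diet did not overlap. The log2 fold changes were -0.89 ± 0.23 (adjusted p = 0.00854) in dHEP and -1.37 ± 0.23 (adjusted p = 0.000151) in FF mice on alcohol. The chow comparisons gave -1.21 ± 0.27 (adjusted p = 0.00172) in dHEP and -0.85 ± 0.27 (adjusted p = 0.0185) in FF mice. The call in FF mice on chow was lost without FF-157 or FF-168, with an adjusted p of at most 0.0683.

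Both Cyp1a genes are targets of the aryl hydrocarbon receptor, and the abundant one fell in tumors. Cyp1a2, which oxidises caffeine and aromatic amines, read on alcohol 29, 120.1, 62.3 and 11.4 CPM in dHEP and 32.9, 42.5, 4.29 and 33.2 CPM in FF tumors, against 341, 319.8, 291 and 322 CPM in dHEP and 404, 131, 175 and 202 CPM in FF non-tumor liver. Chow-fed mice had 26.9, 30 and 14.7 CPM in dHEP and 54.8, 44.8 and 95.6 CPM in FF tumors, against 330.0, 424 and 491 CPM in dHEP and 586, 392 and 545 CPM in FF non-tumor liver. No tumor reached the lowest non-tumor value, and the log2 fold changes were -2.96 ± 0.57 (adjusted p = 0.000835) in dHEP and -3.202 ± 0.57 (adjusted p = 0.000236) in FF mice on alcohol. Mice on chow had -4.11 ± 0.65 (adjusted p = 8.68e-05) in dHEP and -2.998 ± 0.65 (adjusted p = 0.00151) in FF mice. Cyp1a1 lay near the detection threshold with 0.623 to 1.71 CPM (median 0.969) in non-tumor liver; in tumors it ranged from 0 to 23.6 CPM, the highest in FF-168, and it was called in no comparison.

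Cyp2a4, a steroid hydroxylase that is female-biased in normal mouse liver, had the largest positive fold change of the members in each comparison. On alcohol it read 3286, 1244, 2045 and 4358 CPM in dHEP and 1323, 3402, 1389.9 and 2462 CPM in FF tumors, against 108, 32.4, 180.5 and 119 CPM in dHEP and 89.4, 341, 907 and 24.8 CPM in FF non-tumor liver. The chow groups had 1424, 3968 and 8213 CPM in dHEP and 342, 7467 and 2178 CPM in FF tumors, against 127, 42.7 and 60.5 CPM in dHEP and 103, 402 and 34.4 CPM in FF non-tumor liver. In dHEP mice on either diet and in FF mice on alcohol all tumors lay above all non-tumor livers; in FF mice on chow the tumor FF-167, at 342 CPM, lay below the non-tumor library FF-158, at 402 CPM. The log2 fold changes were 4.70 ± 0.95 (adjusted p = 0.00127) in dHEP and 3.59 ± 0.95 (adjusted p = 0.00722) in FF mice on alcohol. For chow the values were 5.68 ± 1.09 (adjusted p = 0.000542) in dHEP and 3.96 ± 1.09 (adjusted p = 0.00865) in FF mice. In FF mice on chow the call was lost without FF-159 or FF-168 (adjusted p = 0.0642 and 0.0672), and the fold change was 4.87 without FF-158. Its neighbour Cyp2a5, the coumarin hydroxylase gene whose upstream sequence differs in the few capitals shown above, was called in no comparison. It ranged over 111 to 2441 CPM (median 588) in the 14 tumors and 327 to 1789 CPM (median 898) in the 14 non-tumor livers, with fold changes of -0.67, -1.01, 0.76 and -0.80. The ratio of Cyp2a4 to Cyp2a5 CPM was 1.70 to 9.87 in the 14 tumors and 0.0247 to 0.776 in the 14 non-tumor livers. Of the 50-base stretches of Cyp2a4 transcripts 36.1% also occur in Cyp2a5, and RSEM decided how shared reads were divided between them. Cyp2a12 (72.6 to 1000.4 CPM, median 435, in the 14 tumors and 409 to 599.8 CPM, median 547, in the 14 non-tumor livers) and Cyp2a22 (2.95 to 67 CPM, median 7.12, in the 14 tumors and 1.1 to 67.5 CPM, median 6.17, in the 14 non-tumor livers) were called in none.

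**Figure D3:**
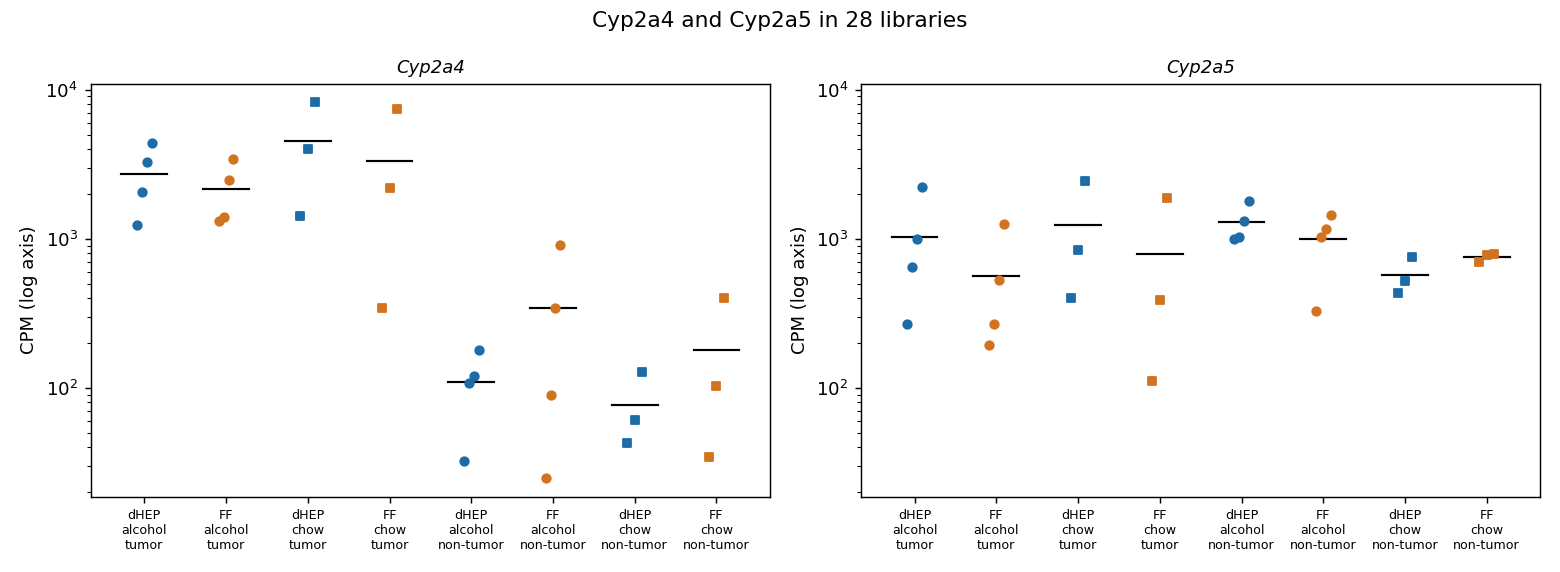
CPM of Cyp2a4 and Cyp2a5 (log axis) in tumors and non-tumor liver of each genotype and diet; points are libraries and lines group means. Cyp2a4 spans 342 to 8213 CPM in tumors and 24.8 to 907 CPM in non-tumor liver, whereas the ranges of Cyp2a5 overlap (111 to 2441 CPM in tumors and 327 to 1789 CPM in non-tumor liver).

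The Cyp2b genes, of which Cyp2b10 is the textbook target of CAR, moved in different directions. Cyp2b10 read 0.0738 to 69.6 CPM (median 0.905) in the 14 tumors and 1.94 to 41.8 CPM (median 19.5) in the 14 non-tumor livers, the highest tumor being dHEP-165. It was lower in dHEP mice on alcohol (-2.94 ± 0.85, adjusted p = 0.0171) and in FF mice on chow (-3.81 ± 0.99, adjusted p = 0.00558), and not called in FF mice on alcohol (-1.96 ± 0.85, adjusted p = 0.0981; with the block, adjusted p = 0.00095) or in dHEP mice on chow (-2.03 ± 0.99, adjusted p = 0.127). Cyp2b9, which is higher in female mice, read on alcohol 576, 233, 115 and 318 CPM in dHEP and 245, 359, 424 and 332 CPM in FF tumors, against 123, 32.7, 19.6 and 9.87 CPM in dHEP and 63.2, 183, 185 and 6.93 CPM in FF non-tumor liver. On chow it read 92.6, 400.0 and 553 CPM in dHEP and 149.9, 113 and 254 CPM in FF tumors, against 38, 4.18 and 9.35 CPM in dHEP and 53.1, 786 and 22.3 CPM in FF non-tumor liver. It rose in dHEP mice, with fold changes of 3.10 ± 0.99 (adjusted p = 0.0288) on alcohol and 4.43 ± 1.15 (adjusted p = 0.00591) on chow, where the groups did not overlap. The call on alcohol was lost in 5 of the 8 fits that leave out 1 library. In FF mice it was called in neither, at 2.37 ± 0.99 (adjusted p = 0.0846) on alcohol and 0.71 ± 1.15 (adjusted p = 0.671) on chow, FF-158 having the highest value of all libraries, 786 CPM. With the block it was called in FF mice on alcohol (adjusted p = 0.0296). The difference between the genotypes on chow, tested as an interaction, was 3.71 ± 1.62 (adjusted p = 1) and thus not called. Cyp2b13 (0.328 to 82.4 CPM, median 3.91, in the 14 tumors and 0.25 to 34.2 CPM, median 4.24, in the 14 non-tumor livers), with the upstream sequence nearest to that of Cyp2b9, was called in none.

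The Cyp2c subfamily, which oxidises drugs, arachidonic acid and steroids, held the largest falls among the members. Of its 13 genes 5 were lower in dHEP and 8 in FF mice on alcohol, and 9 in dHEP and 10 in FF mice on chow; none was called higher. Cyp2c54 on alcohol read 4.66, 20.2, 10.9 and 1.14 CPM in dHEP and 10.1, 13.2, 0.708 and 8.54 CPM in FF tumors, against 239, 276, 236 and 188 CPM in dHEP and 237, 108, 116 and 127 CPM in FF non-tumor liver. On chow Cyp2c54 read 9.43, 9.75 and 2.9 CPM in dHEP and 4.58, 26.8 and 34.8 CPM in FF tumors, against 348, 288 and 372 CPM in dHEP and 416, 317 and 435 CPM in FF non-tumor liver. Every tumor was below every non-tumor liver, and the log2 fold changes were -4.97 ± 0.63 (adjusted p = 1.89e-05) in dHEP and -4.30 ± 0.63 (adjusted p = 3.52e-05) in FF mice on alcohol. On chow they were -5.46 ± 0.73 (adjusted p = 1.28e-05) in dHEP and -4.45 ± 0.73 (adjusted p = 0.000132) in FF mice. Its neighbour Cyp2c50 ranged over 5.35 to 143 CPM (median 50.8) in the 14 tumors and 586 to 1329 CPM (median 984) in the 14 non-tumor livers, again without overlap. Its fold changes were -4.51, -4.14, -5.20 and -4.24, in the order of genotype and diet used above, and all 4 were called. Cyp2c37 read 5.43 to 127 CPM (median 26.3) in the 14 tumors and 285 to 1501 CPM (median 472) in the 14 non-tumor livers, and Cyp2c29 8.46 to 273 CPM (median 118) in the 14 tumors and 586 to 2468 CPM (median 1591) in the 14 non-tumor livers. Their fold changes were -4.04, -3.82, -4.87 and -4.05 for Cyp2c37 and -3.49, -3.92, -4.65 and -3.92 for Cyp2c29, all called. Cyp2c23, an arachidonic acid epoxygenase that lies apart from the others in the cluster, read 17.4 to 176 CPM (median 43.8) in the 14 tumors and 156.6 to 363 CPM (median 262) in the 14 non-tumor livers, the highest tumor being dHEP-549. Its fold changes were -1.73, -2.13, -3.33 and -2.90, all called.

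The other Cyp2c genes were called in fewer comparisons or in none. Cyp2c38 was lower in 3 comparisons and at the threshold in the fourth, in dHEP mice on alcohol (-2.21 ± 0.79, adjusted p = 0.05; with the block, adjusted p = 0.0168), and Cyp2c39 was lower in the same 3 (fold changes -0.54, -1.36, -1.34 and -1.73). Cyp2c67 was lower in FF mice on alcohol (-1.43 ± 0.36, adjusted p = 0.00475) and in dHEP and FF mice on chow (-2.51 ± 0.41, adjusted p = 0.00012, and -2.16 ± 0.41, adjusted p = 0.000513). Cyp2c55 was called lower in both chow comparisons, at -1.62 ± 0.45 (adjusted p = 0.00913) in dHEP and -1.99 ± 0.45 (adjusted p = 0.00197) in FF mice, and in neither on alcohol. Cyp2c70 was lower in FF mice on chow (-1.60 ± 0.52, adjusted p = 0.023). The difference of the Cyp2c55 effect between the diets was 1.18 ± 0.59 (adjusted p = 0.79) in dHEP and 1.57 ± 0.59 (adjusted p = 0.805) in FF mice, not called in either. Cyp2c40, Cyp2c68 and Cyp2c69 were called in none without the block; with it, in FF mice on alcohol, Cyp2c68 was higher (adjusted p = 0.0456) and Cyp2c69 (adjusted p = 0.0125) and Cyp2c70 (adjusted p = 0.012) were lower. Cyp2c68 read 105 to 315 CPM (median 183) in the 14 tumors and 135 to 611 CPM (median 183) in the 14 non-tumor livers. Cyp2c40, Cyp2c67, Cyp2c68 and Cyp2c69 share 43.3% to 60.3% of their 50-base stretches with other P450 transcripts, so their separate values are uncertain. The shares were smaller for Cyp2c37 (30.1%), Cyp2c54 (25.7%) and Cyp2c50 (18.3%), whose values are also not fully separate. Of the 42 P450 genes 23 shared more than 10%.

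In the Cyp2d subfamily, which holds drug and steroid hydroxylases, the abundant Cyp2d26 and Cyp2d10 were called in no comparison or fell by small amounts. The likewise abundant Cyp2d9 fell further. Cyp2d26 was called in none without the block (with it, adjusted p = 0.0412 in FF mice on alcohol) and ranged over 539 to 1228 CPM (median 839) in the 14 tumors and 631 to 993 CPM (median 756) in the 14 non-tumor livers. Cyp2d10 read 385 to 582 CPM (median 540.0) in the 14 tumors and 616 to 842 CPM (median 673) in the 14 non-tumor livers, without overlap. Its fold changes were -0.44, -0.31, -0.52 and -0.51, and that in FF mice on alcohol was not called (adjusted p = 0.108); with the block those in dHEP mice were not called either (adjusted p = 0.16 for alcohol and 0.189 for chow). Cyp2d9, a testosterone hydroxylase that is higher in male mice, on alcohol read 254, 510.1, 440.3 and 333 CPM in dHEP and 308, 388, 231 and 386 CPM in FF tumors, against 1071, 1456, 1223 and 1529 CPM in dHEP and 1247, 991, 1069 and 1095 CPM in FF non-tumor liver. On chow the values were 184, 311 and 167.1 CPM in dHEP and 282, 154.6 and 373 CPM in FF tumors, against 756, 1206 and 1294 CPM in dHEP and 931, 255 and 1407 CPM in FF non-tumor liver. Its log2 fold changes were -1.81 ± 0.37 (adjusted p = 0.00134) in dHEP and -1.77 ± 0.37 (adjusted p = 0.00109) in FF mice on alcohol. The chow comparisons gave -2.31 ± 0.43 (adjusted p = 0.000361) in dHEP and -1.45 ± 0.43 (adjusted p = 0.0124) in FF mice. In FF mice on chow FF-158 lay inside the tumor range, and the call was lost without FF-157, FF-159 or FF-168 (adjusted p at most 0.117). Cyp2d40 and Cyp2d22 were lower in all 4 comparisons without the block; with it, Cyp2d22 was not called in dHEP mice on alcohol (adjusted p = 0.0611). Cyp2d40 read 7.72 to 36.8 CPM (median 20.9) in the 14 tumors and 50 to 114 CPM (median 69.5) in the 14 non-tumor livers, with fold changes of -1.67, -1.74, -2.02 and -1.71. Cyp2d22 read 73.9 to 131 CPM (median 103) in the 14 tumors and 113 to 213 CPM (median 179) in the 14 non-tumor livers, with fold changes of -0.54, -0.68, -0.94 and -1.19. Cyp2d10 shares 35.2% and Cyp2d9 16.7% of its 50-base stretches with other P450 transcripts, so their values are not fully separate.

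Cyp2f2, which activates naphthalene and in liver is a periportal P450, was lower in all 4 tumor groups too. On alcohol it read 55.2, 116, 258 and 6.18 CPM in dHEP and 61.7, 108, 14.3 and 77 CPM in FF tumors, against 814, 631, 800.2 and 637 CPM in dHEP and 753, 659, 446 and 666 CPM in FF non-tumor liver. Chow-fed mice had 27.9, 49.6 and 142 CPM in dHEP and 6.69, 48.5 and 127 CPM in FF tumors, against 600.4, 809 and 887 CPM in dHEP and 944, 402 and 813 CPM in FF non-tumor liver. No tumor reached the non-tumor range, and the log2 fold changes were -3.60 ± 0.83 (adjusted p = 0.00347) in dHEP and -3.54 ± 0.83 (adjusted p = 0.00291) in FF mice on alcohol. Mice on chow had -3.67 ± 0.95 (adjusted p = 0.00615) in dHEP and -4.21 ± 0.95 (adjusted p = 0.00209) in FF mice. Cyp2j5, which makes epoxides of arachidonic acid, was lower in all 4 as well. It read 16.9 to 318 CPM (median 79.2) in the 14 tumors and 474 to 744 CPM (median 604) in the 14 non-tumor livers, with fold changes of -2.51, -3.19, -2.72 and -2.63. Cyp2j9 was lower in all 4 at a low level (0.661 to 14.6 CPM, median 4.22, in the 14 tumors and 10.5 to 32.4 CPM, median 17, in the 14 non-tumor livers), but lost its call in 4 of 8 fits without 1 library in dHEP mice on alcohol and in 5 of 6 on chow. With the block it was not called in dHEP mice on alcohol (adjusted p = 0.0839). Cyp2j6 (53.1 to 177 CPM, median 82.8, in the 14 tumors and 59.9 to 105 CPM, median 86.2, in the 14 non-tumor livers) and Cyp2u1 (2.33 to 46.9 CPM, median 14, in the 14 tumors and 9.42 to 44.4 CPM, median 30, in the 14 non-tumor livers) were called in none, except that Cyp2u1 was lower in FF mice on alcohol with the block (adjusted p = 0.0493).

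The Cyp3a subfamily includes the main drug-metabolising enzymes induced by PXR. Cyp3a11, the main Cyp3a gene of mouse liver, on alcohol read 748, 1427, 1316 and 1013 CPM in dHEP and 789, 467, 148 and 944 CPM in FF tumors, against 2980.1, 2731, 1879 and 2145 CPM in dHEP and 3320.1, 2563, 2945 and 1496 CPM in FF non-tumor liver. The chow groups had 876, 811 and 2164 CPM in dHEP and 604, 504 and 872 CPM in FF tumors, against 2165, 3393 and 4174 CPM in dHEP and 2362, 3683 and 3740.1 CPM in FF non-tumor liver. Tumors lay below non-tumor livers of the same genotype and diet without overlap. In dHEP mice on chow the groups nearly touched, at 2163.7 CPM in the dHEP-165 tumor and 2164.6 CPM in the dHEP-155 non-tumor liver. The log2 fold changes were -1.13 ± 0.43 (adjusted p = 0.0634) in dHEP and -2.37 ± 0.43 (adjusted p = 0.000286) in FF mice on alcohol. For chow the values were -1.44 ± 0.49 (adjusted p = 0.0323) in dHEP and -2.31 ± 0.49 (adjusted p = 0.00129) in FF mice. The difference was thus not called in dHEP mice on alcohol, and in dHEP mice on chow the call was lost in 4 of 6 fits without 1 library. The difference between the genotypes on alcohol was 1.24 ± 0.60 (adjusted p = 1). Cyp3a25 read 43.9 to 342 CPM (median 131) in the 14 tumors and 229 to 796 CPM (median 534) in the 14 non-tumor livers and was lower in all 4 comparisons (fold changes -1.49, -2.32, -1.79 and -2.13). Cyp3a13 was lower in FF mice on chow (-1.11 ± 0.37, adjusted p = 0.025) and, with the block, in FF mice on alcohol (adjusted p = 0.0102). Cyp3a57 was called higher in FF mice on alcohol (0.83 ± 0.26, adjusted p = 0.0191), but it reached 1 CPM in 4 libraries only, of which 3 were FF tumors on alcohol (at most 2.11 CPM). It was thus tested only because of the group in which it was high, and the call is no finding. Cyp3a41a, Cyp3a41b, Cyp3a44 and Cyp3a59 were called in none. Cyp3a44 read 0.154 to 334 CPM (median 1.43) in the 14 tumors and 0 to 77.7 CPM (median 0.26) in the 14 non-tumor livers. Of the 50-base stretches of Cyp3a41a 93.7% also occur in Cyp3a41b. For Cyp3a25 25.2% also occur in Cyp3a59, so the values of these 2 genes are not fully separate either.

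Lists of genes that serve the same enzymes are read beside the shares of all genes called lower in the 4 comparisons, 7.54%, 10.6%, 10.7% and 9.55% in the order used above. Of 4 partners of P450 enzymes 2 were lower in dHEP and 3 in FF mice on alcohol and 3 in each genotype on chow. Cyb5a, which passes electrons to some P450 enzymes, had fold changes of -0.91, -1.16, -1.26 and -1.04, and Pgrmc1, a heme-binding partner, of -0.84, -1.06, -0.78 and -1.08. Of 8 genes of heme synthesis 2, 5, 4 and 4 were lower in the comparisons in the order used above, and none was higher. Alas1, the rate-limiting enzyme, had fold changes of -1.36, -1.98, -1.81 and -1.49, all called, and Cpox of -0.90, -1.24, -1.62 and -1.54, all called. Of 10 receptor partners and hepatocyte factors 2, 3, 2 and 0 were lower and none higher, so the list lay below the share of all genes in FF mice on chow. Hnf4a was called in none (fold changes -0.25, -0.34, -0.08 and -0.35), and Rxra was lower in 3 (-0.39, -0.59, -0.62 and -0.41, the last not called). Of 4 tested targets of the aryl hydrocarbon receptor outside the members, Ugt1a6a was lower in 3 comparisons and Cyp1b1 higher in FF mice on chow (1.16).

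Other drug-handling genes also fell more often than they rose. Of 11 other phase I genes 8, 10, 8 and 8 were lower and none higher. Fold changes in the 4 comparisons were -3.02, -3.64, -4.20 and -3.16 for Cyp2e1, -2.70, -3.45, -2.78 and -3.25 for the carboxylesterase gene Ces3a and -2.27, -3.29, -3.56 and -2.80 for the aldehyde oxidase gene Aox3, all called. Of 21 conjugating (phase II) genes 10, 13, 11 and 11 were lower and none higher, among them the sulfotransferase gene Sult2a8 (-3.81, -3.60, -3.77 and -3.93) and the glucuronosyltransferase gene Ugt2b1 (-2.14, -2.65, -3.07 and -2.40). Of 10 transporter genes 5, 5, 6 and 4 were lower and 0, 1, 2 and 0 higher. Slco1b2, a hepatic uptake transporter, fell (-2.25, -3.14, -3.97 and -2.74), whereas the efflux pump gene Abcb1a rose in FF mice on alcohol and in dHEP mice on chow (1.07, 1.98, 2.10 and 1.48 in the 4 comparisons). The 30 P450 genes outside families 1 to 3 that were tested had 15, 18, 16 and 18 lower and 5, 4, 4 and 5 higher. Of all 13503 genes tested 1736, 1879, 2328 and 2864 were higher in the 4 comparisons. Beside these the numbers of higher P450 and transporter genes do not stand out.

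Diet was compared within each genotype, alcohol minus chow, over the 14 libraries of a tissue. In dHEP non-tumor liver Por and Nr1i3 were called higher on alcohol and Cyp2c67 lower (2 and 1 of 44 members tested, beside 0.19% and 0.466% of 12651 genes). Nr1i3 read 465, 649, 272 and 346 CPM on alcohol, against 147, 133 and 193 CPM on chow, a log2 fold change of 1.40 ± 0.27 (adjusted p = 0.0377). Por read 474, 360.4, 424 and 315 CPM on alcohol, against 135, 209 and 188 CPM on chow (1.15 ± 0.21, adjusted p = 0.0332). For both genes every liver on alcohol was above every liver on chow. Cyp2c67 read 165.2, 163, 178 and 282 CPM on alcohol, against 319, 389 and 354 CPM on chow (-0.88 ± 0.17, adjusted p = 0.0377), again without overlap. Each of the 3 calls was lost in 6 of 7 fits without 1 library (adjusted p up to 0.178).

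In FF non-tumor liver 3 Cyp2c genes were called lower on alcohol and no member higher, beside 0.324% and 0.253% of all genes. Cyp2c54 read 237, 108, 116 and 127 CPM on alcohol, against 416, 317 and 435 CPM on chow (-1.46 ± 0.23, adjusted p = 0.022). Cyp2c37 read 385, 326, 285 and 343 CPM on alcohol, against 607, 1501 and 603 CPM on chow (-1.30 ± 0.26, adjusted p = 0.0415). The diets did not overlap, but the value of 1501 CPM was that of FF-158, without which the fold change was -0.86 (adjusted p = 0.0525). Cyp2c23 read 254, 156.6, 205 and 210.4 CPM on alcohol, against 346, 332 and 363 CPM on chow (-0.77 ± 0.15, adjusted p = 0.0415). Cyp2c23 and Cyp2c37 lost the call in 5 and Cyp2c54 in 3 of 7 fits without 1 library (adjusted p up to 0.155). Without FF-523 and FF-581, the livers with the highest Afp among the FF livers on alcohol, none of the 3 was called.

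Other members lay close to the threshold. Cyp2c55 read 4.75, 1.38, 2.37 and 2.61 CPM on alcohol, against 10.4, 12.2 and 19.9 CPM on chow in dHEP non-tumor liver, and 4.41, 2.07, 4.02 and 0.32 against 13.8, 7.16 and 10.4 CPM in FF non-tumor liver. In both genotypes every liver on alcohol was below every liver on chow, with fold changes of -2.03 ± 0.43 (adjusted p = 0.0553) in dHEP and -1.78 ± 0.43 (adjusted p = 0.0803) in FF mice. In FF non-tumor liver Cyp1a2 (-1.26 ± 0.28, adjusted p = 0.0577), Cyp2c29 (-1.14 ± 0.24, adjusted p = 0.0531), Cyp2c50 (-0.73 ± 0.16, adjusted p = 0.0553) and Cyp2d40 (0.77 ± 0.17, adjusted p = 0.0531) also just missed it. Of the 44 members 36 had a negative fold change in FF non-tumor liver (median -0.38, against 0.01 for all genes) and 27 in dHEP non-tumor liver (median -0.06, against -0.07). FF-158, on the chow side, had the highest non-tumor value of 18 members and the lowest of 4. Without it the FF median was -0.258, and without any 1 library it ranged over -0.474 to -0.258. At an unadjusted p below 0.05 limma gave 4 members higher and 6 lower in dHEP non-tumor liver, beside 3.77% and 9.37% of all genes. In FF non-tumor liver it gave 1 higher and 15 lower, beside 7.49% and 6.47%. These unadjusted counts were not repeated without FF-158.

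**Figure D4:**
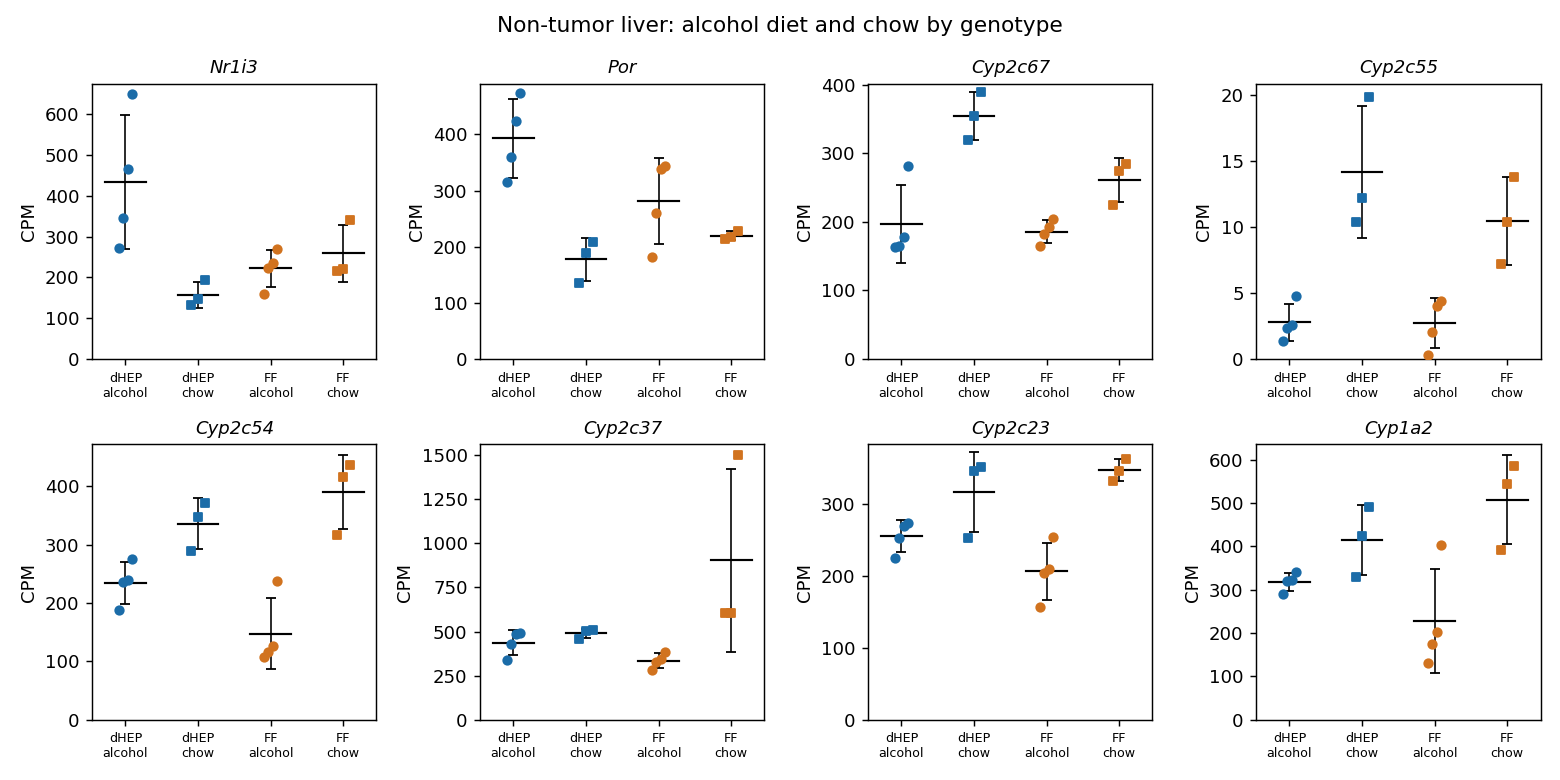
CPM of 8 genes in non-tumor liver (y axis), alcohol left of chow within each genotype; points are libraries, bars means and error bars SD (n = 4 on alcohol, n = 3 on chow). In dHEP mice Nr1i3 averages 433 ± 164.3 CPM on alcohol and 157.5 ± 31.2 CPM on chow, and in FF mice Cyp2c54 averages 147 ± 60.6 CPM on alcohol and 389 ± 63.6 CPM on chow.

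In tumors no member was called for diet in either genotype, beside 0.00757% of 13205 genes in dHEP tumors (1 gene higher) and 0 genes in FF tumors. At an unadjusted p below 0.05 limma gave 7 members higher and 2 lower of 43 in dHEP tumors, beside 3.36% and 7.55% of all genes, and 1 higher and 2 lower in FF tumors, beside 0.833% and 4.6%. In dHEP tumors Nr1i3 read 73, 154, 46.9 and 41.8 CPM on alcohol, against 11.7, 15 and 3.98 CPM on chow, with no overlap (2.79 ± 0.57, adjusted p = 0.13). Por read 163, 195, 216 and 280.4 CPM on alcohol, against 115, 72.8 and 49.6 CPM on chow, also with no overlap (1.48 ± 0.26, adjusted p = 0.115). Por and Nr1i3 were also the members called higher in dHEP non-tumor liver, whose libraries carry the same animal numbers.

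Between the genotypes, dHEP minus FF, limma called 0 of 12651 genes in non-tumor liver and 0 of 13205 in tumors on either diet, so 0% of all genes and 0 members. At an unadjusted p below 0.05 it gave, of 43 members in tumors, 7 higher and none lower on alcohol, beside 2.67% and 3.63% of all genes, and 1 higher and 4 lower on chow, beside 1.01% and 1.86%. Of 44 members in non-tumor liver it gave 6 higher and none lower on alcohol, beside 2.44% and 6.07%, and 2 higher and 6 lower on chow, beside 2.66% and 1.99%. The counts on chow include FF-158 and were not repeated without it. Among these members it stood apart from FF-157 and FF-159 for Cyp2b9 (786 against 53.1 and 22.3 CPM) and Cyp2u1 (9.42 against 27.1 and 28.7 CPM). For Cyp2j9 it lay nearer to them (32.4 against 25.7 and 22.7 CPM). On alcohol Nr1i3 in tumors read 73, 154, 46.9 and 41.8 CPM in dHEP and 25.2, 65.7, 11 and 31.4 CPM in FF mice, overlapping (1.28 ± 0.52, adjusted p = 0.782). In non-tumor liver all dHEP values, from 272 CPM upward, lay above all FF values, of at most 269.6 CPM (0.91 ± 0.25, adjusted p = 0.367). On chow it read 11.7, 15 and 3.98 CPM in dHEP and 32.2, 54.6 and 47.3 CPM in FF tumors (-2.15 ± 0.61, adjusted p = 1). It read 147, 133 and 193 CPM in dHEP and 216, 341 and 219.6 CPM in FF non-tumor liver (-0.70 ± 0.29, adjusted p = 0.988). On chow the sign was thus the opposite of that on alcohol, and none of the 4 differences passed the test. Por followed the same signs, with 0.99 ± 0.24 (adjusted p = 0.645) in tumors and 0.51 ± 0.20 (adjusted p = 0.51) in non-tumor liver on alcohol, and -0.69 ± 0.28 (adjusted p = 1) and -0.33 ± 0.23 (adjusted p = 0.988) on chow.

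Whether the genotype difference depends on diet was tested as an interaction (genotype difference on alcohol minus that on chow); 0 of all genes were called in either tissue. At an unadjusted p below 0.05 limma gave 4 members positive and 1 negative in tumors, beside 2.35% and 2.6% of all genes, and 9 positive and none negative in non-tumor liver, beside 1.89% and 4.99%. Nr1i3 had 3.43 ± 0.80 (adjusted p = 0.642) in tumors and 1.61 ± 0.38 (adjusted p = 0.541) in non-tumor liver, and Por 1.68 ± 0.37 (adjusted p = 0.642) and 0.84 ± 0.30 (adjusted p = 0.724). In non-tumor liver 35 of 44 members were positive (median 0.38, against -0.08 for all genes), with Cyp2c37 at 1.12 ± 0.36 (adjusted p = 0.724) and Cyp2c54 at 0.94 ± 0.33 (adjusted p = 0.724). When 1 library was left out the median of the members ranged over 0.207 to 0.459. FF-158, an FF liver on chow, had the highest non-tumor value of 18 members and the lowest of 4. For Cyp2c37 it read 1501 CPM, the highest of all libraries. The difference of the tumor effect between genotypes was likewise called for 0 of 13503 genes on alcohol and on chow, and so was its difference between diets in each genotype. At an unadjusted p below 0.05 limma gave for genotype no member on alcohol, beside 1.23% and 0.741% of all genes positive and negative, and 4 positive and 1 negative on chow, beside 1.03% and 2.09%. For diet it gave 4 positive and none negative in each genotype, beside 3.1% and 3.33% in dHEP and 0.629% and 5.3% in FF mice. The tests by genotype and the tests by diet use some of the same libraries. FF-158 is in the test by genotype on chow and in the test by diet in FF mice.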

How the data were processed

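RNA-seq libraries of 28 liver samples were analysed from the 1 table deposited by the authors, which gives each gene in CPM, reads of a gene per 1000000 reads of its library; every column sums to 1000000. Reads were aligned and quantified with STAR 2.5.1a and RSEM 1.3.0 against GRCm38, per the submitters' processing notes. The labels give the molecule as polyA RNA and the kit as one for stranded total RNA, so the RNA fraction is unclear. The 22187 gene IDs were paired with symbols from GENCODE for 21653. Depth, 9.57 to 17.82 M reads a library, was estimated from the smallest steps between values. Of the low values 84.9% to 86.9% were whole reads, too few to recover counts, so no count model was used. All columns were matched to a sample.

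Each comparison used limma 3.58.1 with a mean-variance trend (R 4.3.3) on log2(CPM + 1), over genes at 1 CPM or more in no fewer than 3 of the libraries fitted, with Benjamini-Hochberg adjustment over all of them and a call below 0.05. This scale understates the fold change of genes at a few CPM. Genotype and diet comparisons were fitted over the 14 libraries of a tissue, and tumor comparisons and their interactions over all 28. The code was tested on simulated data. Alternatives were a pseudocount of 0.5, no filter, a mean of 5 CPM or more, median-of-ratios scaling, the compared groups alone, leaving out each library, leaving out the pairs FF-523 with FF-581 and dHEP-155 with FF-158, and the animal number as a block. Nothing says that libraries of a group come from separate cages or days, and the p-values measure the spread between these samples. Same-numbered libraries of the tissues deviated together (r over 0.1) for every number in FF mice on alcohol but not in dHEP mice; values with the block are given where it changes a call. In FF mice on chow the tissues carry different numbers, and no block was fitted. The interactions of the tumor effect with genotype or diet were not fitted with the block either.

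The members and gene lists were chosen with earlier results of these data known. All kept members could be named; values in every library are given for those the results turn on and the lowest, median and highest of a tissue for the others. Genes outside the members come from fixed lists. Promoters are those of RefSeq on GRCm38.p6, and figures were drawn with matplotlib 3.10.9 (Python 3.11.15, pandas 2.3.3).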

Additional observations from a re-analysis of the deposited data

Results flagged for a closer look

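In 4 of the 141 groups of 4 libraries examined, those in which a member averaged 5 CPM or more, 1 library lay far from the other 3 (a gap of more than 0.829 of the range of the group); chance alone gives this in about 1 group in 20. Cyp2b13 read 82.4 CPM in the dHEP-518 tumor, against 1.40 to 11.2 CPM in the other dHEP tumors on alcohol. Cyp2c54 read 237 CPM in the FF-503 non-tumor liver, against 108 to 127 CPM in the other FF livers on alcohol. Cyp2c67 read 282 CPM in the dHEP-550 non-tumor liver, against 163 to 178 CPM in the other dHEP livers on alcohol. Cyp2c68 read 306 CPM in the FF-523 tumor, against 176 to 184 CPM in the other FF tumors on alcohol. Cyp2c54 and Cyp2c67 were called for diet in these same groups, with the high library nearest to the chow values.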

How the results depend on the processing

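The counts of members lower in tumors stayed within 1.5 times the reported ones under every alternative, with 15 to 19 (dHEP mice) and 19 to 20 (FF mice) on alcohol and 17 to 24 (dHEP) and 19 to 25 (FF) on chow when 1 library was left out. The few called higher were 1 to 2 in both genotypes on alcohol, and 2 to 5 in dHEP and 0 to 2 in FF mice on chow. In FF mice on alcohol the 2 called higher became 1 with a mean of 5 CPM or more, 1 with the compared groups alone and 5 with the replicate block. In dHEP mice the same block moved no count of calls by over 1.5 times, and the pairing check gave r of -0.107 to 0.251 on alcohol and 0.0728 to 0.187 on chow, not above 0.1 for every number, although every dHEP chow sample correlated best with its own number. It added Cyp2c38 on alcohol and Ahr on chow as lower, and Cyp2d10 (both diets), Cyp2d22 and Cyp2j9 (alcohol) were not called with it.

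The diet calls in non-tumor liver depended on single libraries and settings. In dHEP mice (2 higher, 1 lower) no filter gave 1 higher and 0 lower, median-of-ratios scaling 0 lower, the compared groups alone 3 lower, and leaving out dHEP-155 and FF-158 left 0 higher and 0 lower; without 1 library the counts were 0 to 1 higher and 0 to 1 lower. In FF mice (0 higher, 3 lower) no filter gave 1 lower, a mean of 5 CPM or more gave 1 higher and 5 lower, median-of-ratios scaling 1 higher, and the compared groups alone 0 lower. Leaving out FF-523 and FF-581, or dHEP-155 and FF-158, left 0 lower in FF mice, and leaving out 1 library gave 0 to 1 higher and 0 to 7 lower. The cause was not tested. Nr1i3 in FF non-tumor liver, not called at -0.21, was 0.0020 without FF-158, alone or with dHEP-155, and ranged over -0.3241 to 0.0020 without 1 library. Counts of members called for genotype, for diet in tumors and in the interactions were 0 without any 1 library. Of the single-gene values under the alternatives 1702 kept their direction and side of the threshold, 141 no longer passed it, 13 newly passed it and 2, those of Nr1i3, changed sign. Groups of 3 or 4 libraries, and a few reads a value for the lowest members, limit what could be detected.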

Other observations

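Outside the P450 families, several liver genes known to be male-biased in mice were also lower in tumors. Of all genes tested 7.54%, 10.6%, 10.7% and 9.55% were lower and 12.9%, 13.9%, 17.2% and 21.2% higher. These shares are for dHEP and FF mice on alcohol and dHEP and FF mice on chow, in that order. Of 9 male-biased genes 6 and 5 were lower in dHEP and FF tumors on alcohol and 6 and 4 on chow, and none was higher. Log2 fold changes, tumor minus non-tumor in that order, were -4.00, -3.37, -5.28 and -3.33 for the fatty acid elongase gene Elovl3, all called, -3.84, -2.80, -4.22 and -2.66 for the uptake transporter gene Slco1a1, the last not called, and -0.97, -1.02, -0.52 and -0.02 for the urinary protein gene Mup20, none called. Of 7 female-biased genes tested, Abcd2, which encodes a peroxisomal fatty acid transporter, was higher in all 4 comparisons (3.09, 2.98, 3.33 and 2.29), and no other was called. Such a count of higher genes does not stand out from the shares of all genes. The comparison in FF mice on chow includes FF-158. That liver was below all other non-tumor livers for 9 of 9 male-biased genes and above all for 7 of 8 female-biased ones. Of 5 Kupffer cell and macrophage genes 3, 3, 4 and 0 were lower, with -2.02, -1.81, -2.48 and -1.34 for Clec4f. Of 7 periportal hepatocyte genes 0, 2, 4 and 1 were lower and 1 was higher in each comparison, while of 8 pericentral genes tested 5, 6, 7 and 4 were lower and none higher. What part these genes or cells have in the P450 values was not tested.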
